A study of Mus musculus with 10 samples.

Results

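Suppressors of cytokine signalling (SOCS) and signal transducers and activators of transcription (STAT) were followed through RNA sequencing of dendritic cell precursors of the mouse spleen. The genes are Socs1, Socs3, Cish, Stat2, Stat3, Stat4, Stat5a, Stat5b and Stat6, chosen by gene name, 9 of the 52550 genes of the deposited table. All mice were C57BL/6. The labels call the cells pre-cDC2 and pre-cDC1 (Ly6C and DN in the titles), which are precursors committed to type 2 or type 1 conventional dendritic cells. KO mice have the genotype CD11c-cre Adam10fl/fl: a CD11c promoter drives Cre, which cuts out the floxed segment of Adam10, a membrane protease gene. The genotype of the other mice is given as WT only, and neither their Cre or floxed alleles nor the age of any mouse is stated in the labels. There were 2 KO pre-cDC2, 2 WT pre-cDC2, 3 KO pre-cDC1 and 3 WT pre-cDC1 libraries. The labels do not say that replicates were separate animals, so p-values measure the spread between libraries, which may be technical.

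Cytokine receptors without kinase activity of their own signal through Janus kinases (JAKs), which phosphorylate STAT proteins. Phosphorylated STATs pair, enter the nucleus and switch on genes that include those of the SOCS family, whose proteins bind receptors or JAKs and damp the signal. In dendritic cells this circuit carries the signals of GM-CSF and interferons, among others. All values below are transcript levels, which do not report phosphorylation or protein.

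Recovered totals were 7862449 to 13177686 reads per library. Levels are given as log2 RPKM (reads scaled to gene length and library size, on a log2 scale). All 9 genes passed the filter of a log2 RPKM above 0 in at least 2 libraries, as did 14787 genes in all. The deletion could not be checked, as gene-level Adam10 values include exons outside the floxed part. Adam10 had 742 to 909 reads in KO pre-cDC2 and 228 to 1261 in WT pre-cDC2, against 3 to 13 in KO pre-cDC1 and 10 to 48 in WT pre-cDC1, and neither KO minus WT difference passed the test.

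Markers of other cells stood out in the libraries labelled pre-cDC2, before any result on the 9 genes. The summed level of 16 T cell markers was 1360 to 1510 RPKM in KO pre-cDC2, against 102 RPKM in WT pre-cDC2 replicate 2 and 2030 RPKM in replicate 3. It was 4.70 to 8.36 RPKM in KO pre-cDC1 and 9.58 to 19.2 RPKM in WT pre-cDC1. The 14 NK cell markers followed, at 2190 to 2570 RPKM in KO pre-cDC2, 118 RPKM in WT pre-cDC2 replicate 2, 2470 RPKM in WT replicate 3, 40.9 to 44.7 RPKM in KO pre-cDC1 and 63.7 to 70.7 RPKM in WT pre-cDC1. No T or NK cell marker was at 0 reads in a pre-cDC2 library. In KO pre-cDC1 1 to 4 of the T cell markers and 1 to 5 of the NK cell markers were at 0, among them Cd3e in KO replicate 2 and Ncr1 in KO replicates 1 and 2. The 12 cDC2 markers, with 2 identifiers of Itgam both counted, summed to 448 to 463 RPKM in KO pre-cDC2. In WT pre-cDC2 they were at 1120 RPKM in replicate 2 and 368 RPKM in replicate 3. In pre-cDC1 they were at 255 to 306 RPKM in KO and 426 to 443 RPKM in WT. By sum WT pre-cDC1 thus lay above WT pre-cDC2 replicate 3. By mean log2 RPKM WT pre-cDC1 was at 2.25 to 2.64, around the 2.63 of that library. Flt3 and Zbtb46 stand in both the cDC2 and the cDC1 marker list. The 11 cDC1 markers summed to 2290 to 2480 RPKM in KO pre-cDC1 and 2040 to 2170 RPKM in WT pre-cDC1. In pre-cDC2 they were at 364 to 378 RPKM in KO and 313 to 628 RPKM in WT. WT pre-cDC2 replicate 2 was thus far from the other pre-cDC2 libraries in its T and NK cell transcripts. Its correlation with WT pre-cDC2 replicate 3 across genes, which are not independent replicates, was r = 0.774, while other replicate pairs gave 0.867 to 0.886. In such bulk samples, fewer cells of a type and less RNA per cell cannot be told apart. The labels name the libraries below, and results are given with and without WT pre-cDC2 replicate 2 where they rest on it.

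The clearest pattern was between the cell types. Socs3, Stat4, Stat5a and Stat5b were higher in pre-cDC2 than in pre-cDC1 in both genotypes, and Socs1 and Cish were called higher in KO alone. Stat2, Stat3 and Stat6 passed in neither genotype. Of the 9 genes, 6 were called higher in KO pre-cDC2 and none lower, where 10.7% of all tested genes were called higher and 10.1% lower. In WT, 4 were called higher and none lower, where 4.88% of all tested genes were called higher and 6.59% lower. The WT count was 1 without a mean-variance trend, with library weights or with the compared groups alone in the fit. It was 1 also without WT pre-cDC1 replicate 1 or 3, and 2 without WT pre-cDC1 replicate 2. None of the 9 genes passed in WT with a replicate block within genotype. The KO count was 2 without either KO pre-cDC2 library. The median difference of the 9 genes was 1.25 log2 in KO and 1.24 log2 in WT, beside 0.09 and 0.06 log2 over all tested genes. These 2 comparisons share no library, although one estimate of the spread serves both. All differences are pre-cDC2 minus pre-cDC1 and come from a limma fit to all libraries with Benjamini-Hochberg adjustment over the 14787 genes.

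**Figure D1:**
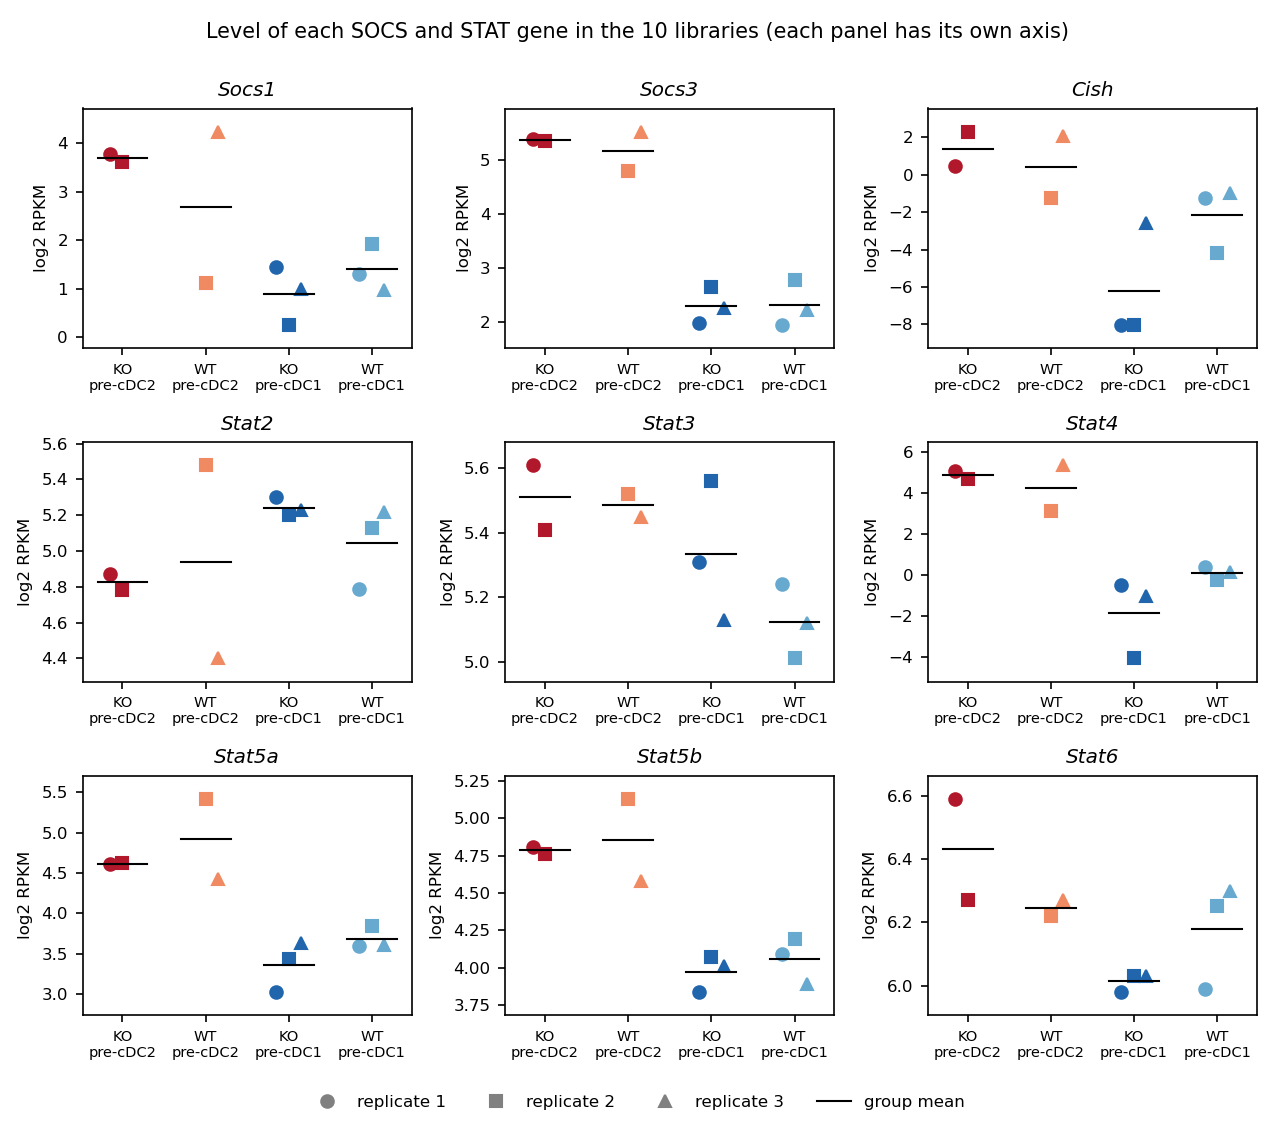
Level of the 9 genes (log2 RPKM, vertical axes) in each of the 10 libraries, with points for libraries, symbols for replicate numbers and lines for group means. Socs3, Stat5a, Stat5b and Stat4 lie higher in each of the 4 pre-cDC2 libraries than in each of the 6 pre-cDC1 libraries, while Socs1 and Cish of WT pre-cDC2 replicate 2 lie among the pre-cDC1 values.

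The SOCS genes encode the inhibitors of the pathway. Socs3 (ENSMUSG00000053113.3, chromosome 11, 117966079 to 117970047, minus strand, GRCm38) encodes an inhibitor that binds the receptor chain gp130 and JAKs, and is a classic target of STAT3. Its level was 5.39 and 5.34 log2 RPKM in KO pre-cDC2 and 4.80 and 5.52 in WT pre-cDC2, against 1.97, 2.65 and 2.25 in KO pre-cDC1 and 1.94, 2.77 and 2.22 in WT pre-cDC1. Every pre-cDC2 library was above every pre-cDC1 library, WT pre-cDC2 replicate 2 included. The difference was 3.08 ± 0.31 log2 in KO, an 8.43-fold higher level (SE, n = 2 and 3; limma adjusted p = 0.000246). In WT it was 2.85 ± 0.31 log2, or 7.20-fold (n = 2 and 3; limma adjusted p = 0.000591). Without WT pre-cDC2 replicate 2 it was 3.21 ± 0.36 log2 in WT, and with replicate 2 as the only WT pre-cDC2 library it was 2.49 ± 0.36 log2 (limma adjusted p = 0.000713 and 0.00446). Of the 9 genes, Socs3 alone passed in both of these fits.

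Socs1 (ENSMUSG00000038037.4, chromosome 16, 10782240 to 10785536, minus strand, GRCm38) encodes an inhibitor of JAK activity known for restraining interferon signals. Socs1 was at 3.77 and 3.61 log2 RPKM in KO pre-cDC2 and at 1.12 and 4.24 in WT pre-cDC2, against 1.45, 0.25 and 0.98 in KO pre-cDC1 and 1.31, 1.92 and 0.97 in WT pre-cDC1. The value of WT pre-cDC2 replicate 2 fell inside the range of WT pre-cDC1, so that only the KO groups did not overlap. KO pre-cDC2 was higher by 2.80 ± 0.77 log2 (limma adjusted p = 0.0312), while in WT the difference of 1.28 ± 0.77 log2 did not pass (limma adjusted p = 0.349). In WT it was 2.84 ± 0.52 log2 without replicate 2, which passed (limma adjusted p = 0.0076), and -0.28 ± 0.54 log2 without replicate 3. The KO call was lost without KO pre-cDC1 replicate 2 or 3 (2.48 ± 0.86 and 2.84 ± 0.90 log2; limma adjusted p = 0.0893 and 0.0675) and without KO pre-cDC2 replicate 1 or 2 (2.72 ± 1.07 and 2.88 ± 1.07 log2; limma adjusted p = 0.167 and 0.131). The deposited Socs1 values imply a shorter exon length, 1220 bases, than the 2908 bases of the annotation used here for its position (version 5 of the gene).

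Cish (ENSMUSG00000032578.7, chromosome 9, 107296026 to 107302784, plus strand, GRCm38) encodes CIS, an inhibitor induced by STAT5. It was the least abundant of the 9 genes in each group. Cish had 87 and 275 reads in KO pre-cDC2 and 37 and 303 in WT pre-cDC2, against 0, 0 and 8 in KO pre-cDC1 and 24, 3 and 33 in WT pre-cDC1. In log2 RPKM these were 0.47 and 2.3 in KO pre-cDC2 and -1.24 and 2.09 in WT pre-cDC2, against -8.02, -8.02 and -2.57 in KO pre-cDC1 and -1.25, -4.16 and -0.97 in WT pre-cDC1. KO pre-cDC2 did not overlap KO pre-cDC1, and the WT groups overlapped through replicate 2. The fitted difference of 7.59 ± 1.94 log2 in KO (limma adjusted p = 0.0227) depends on the small value that stands for 0 reads, and was 1.83 log2 once 1 RPKM was added to every value. The KO call was lost without KO pre-cDC1 replicate 1 or 2 (6.68 ± 2.05 log2 each; limma adjusted p = 0.0632 and 0.0623) and without KO pre-cDC2 replicate 1 or 2 (8.5 ± 2.58 and 6.67 ± 2.60 log2; limma adjusted p = 0.0858 and 0.149). The WT difference of 2.55 ± 1.94 log2 did not pass (limma adjusted p = 0.464). Exons of an antisense gene, Gm17041, share 479 bases with those of Cish, and whether counting used the strand is not given in the sources used here.

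The promoters of these inhibitors are shown because STAT and interferon regulatory factors are known to drive them. The sequences are from RefSeq (GRCm38.p6), read 5′ to 3′ on the gene's strand, with matches in capitals. The start is that of the RefSeq transcript, which for Cish and Socs3 lies inside the gene limits given above, since those span all annotated transcripts, some with starts farther upstream. For Cish and Socs3 the capitals mark TTCNNNGAA, the palindromic STAT site, and for Socs1 the interferon response element, GAAA and GAAA with 2 bases between, of which 2 matches overlap.
Cish, chr9:107296654-107296683, from 5 bases before to 25 bases into the RefSeq transcript: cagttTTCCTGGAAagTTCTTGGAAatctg
Socs3, chr11:117969486-117969546, from 180 to 120 bases before the RefSeq start: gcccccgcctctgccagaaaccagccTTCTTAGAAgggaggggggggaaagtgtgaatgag
Socs1, chr16:10785576-10785636, from 100 to 40 bases before the RefSeq start: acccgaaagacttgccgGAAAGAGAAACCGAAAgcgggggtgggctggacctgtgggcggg
The Cish stretch holds a pair of STAT sites right at the start of the RefSeq transcript. Windows of 300 bases (250 before and 50 after it starts) were searched on both strands for all 9 genes, which have 12 windows. TTCNNNGAA was in windows of 2 genes, Cish and Socs3, and in 8.29% of 32817 windows of all genes. GAAA and GAAA with 2 bases between was in windows of 3 genes, Socs1, Stat2 and Stat4, and in 3.43% of all windows, and TTC and GAA with 4 bases between, the wider spacing that STAT6 prefers, was in that of Stat2 and in 6.94%. A match describes the letters only.

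Of the STATs, Stat4 showed the widest spread. STAT4 transmits IL-12 signals and is best known in T and NK cells. Stat4 (ENSMUSG00000062939.11, chromosome 1, 51987148 to 52107189, plus strand, GRCm38) was at 5.08 and 4.70 log2 RPKM in KO pre-cDC2 and at 3.12 and 5.37 in WT pre-cDC2, against -0.49, -4.08 and -1.05 in KO pre-cDC1 and 0.38, -0.25 and 0.13 in WT pre-cDC1. Each pre-cDC2 library lay above all pre-cDC1 libraries, and the lowest of the 4 was WT replicate 2, the library with the fewest T and NK cell transcripts. The difference was 6.76 ± 1.01 log2 in KO (limma adjusted p = 0.00161) and 4.15 ± 1.01 log2 in WT (limma adjusted p = 0.0277). With replicate 2 as the only WT pre-cDC2 library it was 3.03 ± 1.23 log2 and did not pass (limma adjusted p = 0.196). Nor did it pass in WT when pre-cDC1 replicate 1, 2 or 3 was left out (4.30, 3.99 and 4.18 log2; limma adjusted p = 0.0677, 0.0799 and 0.0697) or when KO pre-cDC2 replicate 1 or 2 was, at 4.15 log2 (limma adjusted p = 0.0567 and 0.0559). With 1 RPKM added to every value the differences were 4.46 log2 in KO and 3.29 log2 in WT, and both passed. In pre-cDC1 Stat4 rested on 2 to 28 reads per KO library and 29 to 45 per WT library. A transcript gene on the same strand, Gm28177, shares 26.7% of the exon bases of Stat4, so reads there may have been dropped or shared by the authors' counting.

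Stat5a and Stat5b encode near-identical STATs that lie close together on chromosome 11 and carry the signals of GM-CSF and of the IL-2 family. Stat5a (ENSMUSG00000004043.14, 100859351 to 100885169, plus strand, GRCm38) was at 4.61 and 4.62 log2 RPKM in KO pre-cDC2 and at 5.42 and 4.42 in WT pre-cDC2, against 3.03, 3.44 and 3.63 in KO pre-cDC1 and 3.60, 3.84 and 3.61 in WT pre-cDC1. Stat5b (ENSMUSG00000020919.11, 100780731 to 100850724, minus strand, GRCm38) was at 4.81 and 4.76 log2 RPKM in KO pre-cDC2 and at 5.13 and 4.58 in WT pre-cDC2, against 3.84, 4.07 and 4.01 in KO pre-cDC1 and 4.09, 4.19 and 3.89 in WT pre-cDC1. For both genes the pre-cDC2 and pre-cDC1 libraries did not overlap, and the highest value of all 10 libraries was in WT pre-cDC2 replicate 2, where T and NK cell transcripts were lowest among pre-cDC2. Markers of plasmacytoid dendritic cells (10 genes) also peaked in that library, as did markers of monocytes (10 genes) by mean log2 RPKM. The 12 cDC2 markers peaked there too, at 1120 RPKM and a mean of 4.33 log2 RPKM. In KO pre-cDC2 they reached at most 463 RPKM and 3.22 log2 RPKM. The plasmacytoid markers summed to 498 to 595 RPKM in KO pre-cDC2. In WT pre-cDC2 they summed to 1090 RPKM in replicate 2 and 429 RPKM in replicate 3. In pre-cDC1 they summed to 138 to 163 RPKM in KO and 181 to 205 RPKM in WT. Of the 10, 8 were called higher in pre-cDC2 in KO and 7 in WT, where 10.7% and 4.88% of all tested genes were. The monocyte markers averaged 2.70 to 2.99 log2 RPKM in KO pre-cDC2, 4.06 in WT pre-cDC2 replicate 2 and 2.35 in WT replicate 3, against -0.23 to 1.56 in KO pre-cDC1 and 1.72 to 2.10 in WT pre-cDC1. By summed level the monocyte markers did not peak in WT pre-cDC2 replicate 2, where they were at 1100 RPKM. They summed to 1800 to 1990 RPKM in WT pre-cDC1 and 1100 to 1420 RPKM in KO pre-cDC1. The part of plasmacytoid, monocyte or cDC2 transcripts in the Stat5a and Stat5b values was not tested.

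Stat5a differed by 1.25 ± 0.29 log2 in KO, a 2.38-fold higher level (limma adjusted p = 0.0141), and by 1.24 ± 0.29 log2 in WT (limma adjusted p = 0.0234). Stat5b differed by 0.81 ± 0.19 log2 in KO, 1.76-fold (limma adjusted p = 0.0148), and by 0.80 ± 0.19 log2 in WT (limma adjusted p = 0.0254). With replicate 2 as the only WT pre-cDC2 library the WT differences were 1.74 ± 0.24 log2 for Stat5a and 1.07 ± 0.17 log2 for Stat5b, and both passed (limma adjusted p = 0.0035 and 0.00601). Without replicate 2 they were 0.74 ± 0.24 and 0.52 ± 0.17 log2, and neither passed (limma adjusted p = 0.0745 and 0.071). The WT call of Stat5a was lost without WT pre-cDC1 replicate 1, 2 or 3 (1.19, 1.32 and 1.20 log2; limma adjusted p = 0.0739, 0.0509 and 0.0678), and that of Stat5b without replicate 1 or 3 (0.81 and 0.71 log2; limma adjusted p = 0.0688 and 0.0795). In KO, without pre-cDC2 replicate 1 or 2, Stat5a was at 1.26 and 1.24 log2 (limma adjusted p = 0.0918 and 0.0856) and Stat5b at 0.79 and 0.84 log2 (limma adjusted p = 0.0985 and 0.0753). Reads that match both genes equally could have been dropped or assigned to either, so the split between them is uncertain.

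**Figure D2:**
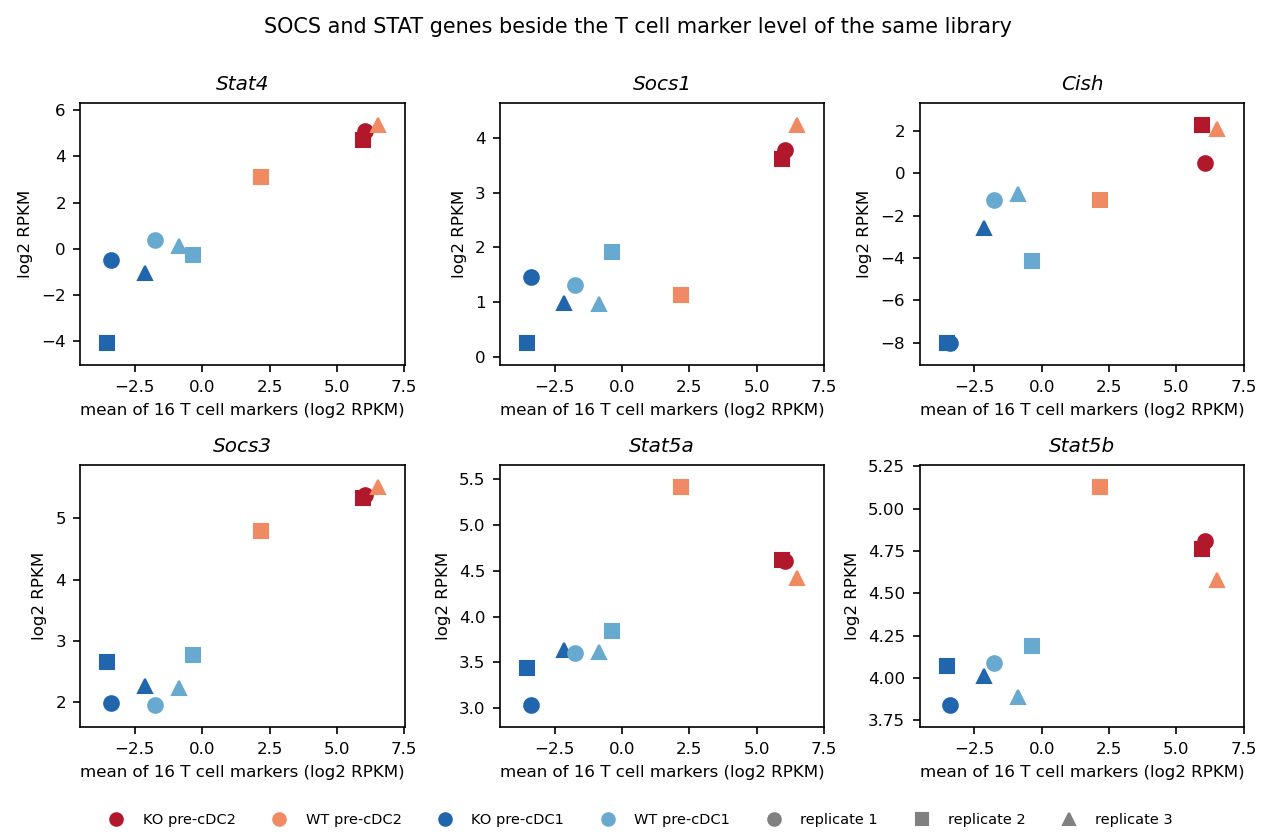
Level of 6 genes (log2 RPKM, vertical axes) beside the mean log2 RPKM of 16 T cell markers in the same library (horizontal axes), with colours for groups and symbols for replicate numbers. In WT pre-cDC2 replicate 2, at a T cell mean of 2.18, Socs1 and Cish lie at the pre-cDC1 level, Stat4 and Socs3 between pre-cDC1 and the other pre-cDC2 libraries, and Stat5a and Stat5b above all other libraries.

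The T cell markers moved with some of the 9 genes and not with others among the pre-cDC2 libraries, as the plot against the T cell marker level shows. At a mean T cell marker level of 5.96 to 6.05 log2 RPKM in KO pre-cDC2, 2.18 in WT pre-cDC2 replicate 2 and 6.51 in WT replicate 3, Socs1, Cish, Stat4 and Socs3 were each lower in WT replicate 2 than in the other 3, as was Stat6 by a small margin (6.22 log2 RPKM, against 6.27 to 6.59). Stat5a, Stat5b and Stat2 were each higher there. With WT replicate 2 as the only WT pre-cDC2 library, the WT differences were -0.28 log2 for Socs1, 0.89 for Cish and 3.03 for Stat4. They were 2.49 log2 for Socs3, 1.74 for Stat5a and 1.07 for Stat5b. With replicate 3 as the only one they were, in the same order, 2.84, 4.21, 5.28, 3.21, 0.74 and 0.52 log2. T cell markers summed to 102 RPKM in replicate 2 and 9.58 to 19.2 RPKM in WT pre-cDC1. The part of T and NK cell transcripts in the differences between the cell types was not tested.

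The other STATs were abundant and nearly level. Stat6 (chromosome 10, 127642986 to 127660957, GRCm38), which transmits IL-4 and IL-13 signals, was the most abundant of the 9 genes in every group. Its level was 6.59 and 6.27 log2 RPKM in KO pre-cDC2 and 6.22 and 6.27 in WT pre-cDC2, against 5.98, 6.03 and 6.03 in KO pre-cDC1 and 5.99, 6.25 and 6.30 in WT pre-cDC1. The KO groups did not overlap, yet the difference of 0.42 ± 0.15 log2 did not pass (limma adjusted p = 0.0747), and in WT it was 0.07 ± 0.15 log2.

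Stat3 (chromosome 11, 100885098 to 100939540, GRCm38), used by IL-6, IL-10 and FLT3 ligand, lay between 5.01 and 5.61 log2 RPKM in all 10 libraries. Its differences of 0.17 ± 0.16 log2 in KO and 0.36 ± 0.16 log2 in WT did not pass (limma adjusted p = 0.492 and 0.196), with 95% intervals of -0.18 to 0.53 and 0.00 to 0.71. Stat2 (chromosome 10, 128270559 to 128292849, GRCm38), which acts in the type I interferon response, was at 4.87 and 4.78 log2 RPKM in KO pre-cDC2 and at 5.48 and 4.40 in WT pre-cDC2, against 5.30, 5.20 and 5.23 in KO pre-cDC1 and 4.79, 5.13 and 5.22 in WT pre-cDC1. It was the single gene of the 9 with a negative difference, -0.42 ± 0.27 log2 in KO and -0.11 ± 0.27 log2 in WT, neither of which passed. Without WT pre-cDC2 replicate 2, which held the highest Stat2 value of all libraries, the WT difference was -0.65 ± 0.17 log2 and passed (limma adjusted p = 0.0373), while with replicate 2 as the only WT pre-cDC2 library it was 0.43 ± 0.17 log2 (limma adjusted p = 0.185).

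Taking the groups that do not overlap in place of the test, 7 of the 9 genes were higher and 1 was lower in every KO pre-cDC2 library, where 28.6% of all tested genes were higher and 23.1% lower. In WT 5 were higher and 0 lower, where 20.2% were higher and 18.5% lower.

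By length-corrected level the order in pre-cDC1 was the same in both genotypes, from Stat6 through Stat3, Stat2, Stat5b, Stat5a, Socs3, Socs1 and Stat4 to Cish. The ranges of Stat3 and Stat2 overlapped in both genotypes, as did those of Stat4 and Cish in KO. In KO pre-cDC2 Socs3 stood next after Stat6 and Stat3, with a mean of 5.36 ± 0.03 log2 RPKM (SD, n = 2), followed by Stat4 at 4.89 ± 0.27. Stat4 overlapped Stat2, and Stat2 overlapped Stat5b. In WT pre-cDC2 Socs3 was again the next after Stat6 and Stat3, at 5.16 ± 0.51 log2 RPKM (SD, n = 2), and from Stat3 down each gene's range overlapped that of the gene after it.

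**Figure D3:**
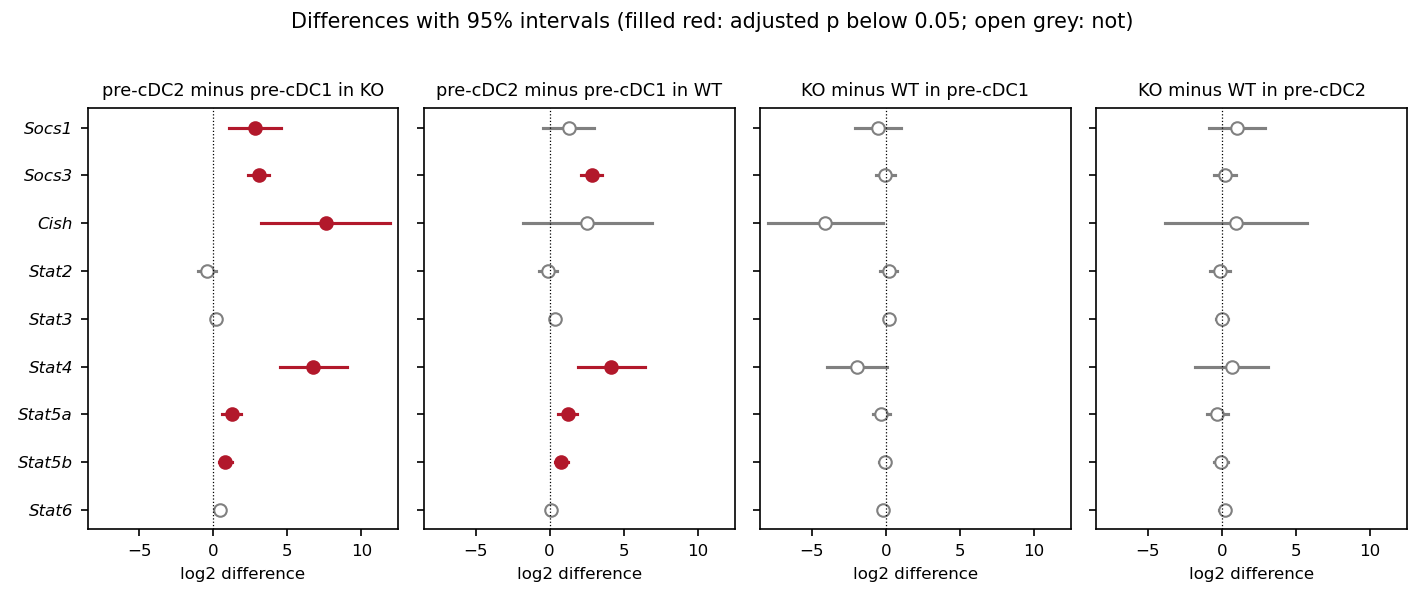
Fitted log2 differences of the 9 genes (horizontal axes) with 95% intervals, for pre-cDC2 minus pre-cDC1 in each genotype and for KO minus WT in each cell type. Filled red points passed at an adjusted p below 0.05, which 6 genes did in KO and 4 in WT between the cell types, and none between the genotypes.

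KO and WT pre-cDC1 were compared to see whether the Adam10 deletion in CD11c-expressing cells went with other levels of these genes. None of the 9 genes passed in limma, where 0.0271% of all tested genes did (4 of 14787, with 1335 at an unadjusted p below 0.05), and 1 gene, Cish, had an unadjusted p below 0.05. With voom on the recovered reads the count was also 0. Their median difference, KO minus WT, was -0.17 log2, beside 0.00 over all tested genes. Among the 9 genes, 1 had groups that did not overlap, Stat4, where 17.2% of all tested genes had such groups in either direction.

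The low-abundance genes had the widest values. Cish had 0, 0 and 8 reads in KO pre-cDC1 and 24, 3 and 33 in WT pre-cDC1, a fitted difference of -4.08 ± 1.73 log2 (limma adjusted p = 0.522) that was -0.31 log2 with 1 RPKM added. Stat4 had 28, 2 and 14 reads in KO and 45, 29 and 43 in WT, a difference of -1.96 ± 0.90 log2 (limma adjusted p = 0.56). By summed level, T and NK cell markers in KO pre-cDC1 also lay wholly under those in WT pre-cDC1 (4.70 to 8.36 against 9.58 to 19.2 RPKM, and 40.9 to 44.7 against 63.7 to 70.7 RPKM), and their part in the Stat4 and Cish values was not tested. Without KO replicate 2, the library with 2 reads, the Stat4 difference was -0.86 ± 0.60 log2. The 8 erythroid markers summed to 39.0 to 75.6 RPKM in KO pre-cDC1 and 14.9 to 23.4 RPKM in WT pre-cDC1, and the 12 cDC2 markers to 255 to 306 RPKM in KO and 426 to 443 RPKM in WT, with no marker of either list called. Their part in these comparisons was not tested either.

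For the abundant genes the intervals were narrow in pre-cDC1. Stat6 differed by -0.17 log2 with a 95% interval of -0.46 to 0.13, Stat5b by -0.08 (-0.46 to 0.30), Stat3 by 0.21 (-0.11 to 0.53) and Stat2 by 0.20 (-0.36 to 0.75). Stat5a differed by -0.32 log2 (-0.89 to 0.26) and Socs3 by -0.02 (-0.65 to 0.61). These intervals leave out a 2-fold change of these 6 genes in either direction. Socs1, at -0.51 log2 (-2.07 to 1.05), had a wider interval, which includes a 2-fold lower and a 2-fold higher level, with 14 to 34 reads in KO and 24 to 41 in WT. Its SE was 0.69 log2 with all libraries and 0.37 or 0.38 without WT pre-cDC2 replicate 2 or 3, since all groups share one estimate of the spread.

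KO and WT pre-cDC2 were compared for the same question. None of the 9 genes passed in limma or in voom, where 0.0676% of all tested genes did in limma (10 of 14787, with 987 at an unadjusted p below 0.05), and 0 of the 9 had an unadjusted p below 0.05. The groups overlapped for all 9 genes, where 30.2% of all tested genes had groups that did not, and their median difference was 0.18 log2, beside 0.00 over all tested genes. Socs1 had the largest difference, 1.01 ± 0.85 log2, from 3.77 and 3.61 log2 RPKM in KO beside 1.12 and 4.24 in WT. The WT libraries set these values. With WT replicate 2 as the only WT library Socs1 was higher in KO by 2.57 ± 0.57 log2 and passed (limma adjusted p = 0.0392), and with replicate 3 as the only WT library it differed by -0.55 ± 0.55 log2. The same switch turned the sign for Socs3, Cish, Stat2, Stat3, Stat4, Stat5a and Stat5b, so that KO minus WT in pre-cDC2 changed sign with the WT library for 8 of the 9 genes. Stat6 kept its sign, at 0.16 and 0.21 log2. Erythroid markers moved with genotype in pre-cDC2, where 2 of 8 were called higher in KO, at a summed 32.3 to 65.0 RPKM in KO and 5.39 to 6.47 RPKM in WT, and their part in these values was not tested.

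The difference between the cell types in their KO minus WT values, the interaction, passed for none of the 9 genes in limma or in voom, where 0.0203% of all tested genes passed in limma, and 0 had an unadjusted p below 0.05. It was 5.04 ± 2.74 log2 for Cish, 2.61 ± 1.42 for Stat4 and 1.52 ± 1.09 for Socs1 (limma adjusted p = 0.987 each). So the calls of Socs1 and Cish in KO alone are not shown to differ from WT. Averaged over both cell types, KO minus WT passed for none of the 9 genes in limma or voom either, where 0.108% of all tested genes passed in limma, with 0 at an unadjusted p below 0.05.

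The genes around the 9 in the pathway were read from lists of other SOCS genes, JAKs, regulators, receptors, ligands and textbook targets. In KO pre-cDC1 and KO pre-cDC2 against WT no gene of any of these lists passed in limma. The smallest p belonged in pre-cDC1 to Fcer2a, a STAT6 target and B cell gene, which had no read in KO and 10 to 75 reads in WT. Setting each KO library to 3 reads makes it lower by at least 11.7-fold (limma adjusted p = 0.0643). Fcer2a is also in a list of 12 B cell markers. These summed to 349 to 401 RPKM in KO pre-cDC1 and 598 to 701 RPKM in WT pre-cDC1, and the part of B cell transcripts was not tested. Next came Il2rg, the receptor chain shared by the IL-2 family, at -1.02 ± 0.18 log2 (limma adjusted p = 0.0802), and Jak3, its kinase partner, at 0.74 ± 0.17 log2 (limma adjusted p = 0.177). In pre-cDC2 it was Icam1, an adhesion molecule, at -0.39 ± 0.13 log2 (limma adjusted p = 0.58).

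Between the cell types, counts in the lists below stand beside the shares of all tested genes. These were 10.7% called higher and 10.1% lower in KO pre-cDC2, and 4.88% and 6.59% in WT pre-cDC2. The kinases did not move together. Of the 4 JAKs, 2 were higher and 1 was lower in KO pre-cDC2, and 1 was higher and 1 lower in WT pre-cDC2. Jak3 was at 5.6 and 5.41 log2 RPKM in KO pre-cDC2 and 5.06 and 5.54 in WT pre-cDC2, against 4.09, 4.18 and 3.80 in KO pre-cDC1 and 3.16, 3.32 and 3.36 in WT pre-cDC1. Its difference was 1.48 ± 0.19 log2 in KO and 2.02 ± 0.19 log2 in WT (limma adjusted p = 0.000767 and 0.000234). Tyk2, the kinase of interferon and IL-12 receptors, was at 5.34 and 5.22 log2 RPKM in KO pre-cDC2 and 5.47 and 5.16 in WT pre-cDC2, against 6.37, 6.45 and 6.11 in KO pre-cDC1 and 5.99, 6.33 and 6.39 in WT pre-cDC1. It was lower by 1.03 ± 0.18 log2 in KO and 0.92 ± 0.18 log2 in WT. For both kinases all pre-cDC2 libraries lay apart from all pre-cDC1 libraries. Jak1 was called in KO alone, at 2.53 ± 0.44 log2 (limma adjusted p = 0.00381), with 7.96 and 7.66 log2 RPKM in KO pre-cDC2 beside 5.92 in WT pre-cDC2 replicate 2 and 7.85 in replicate 3.

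**Figure D4:**
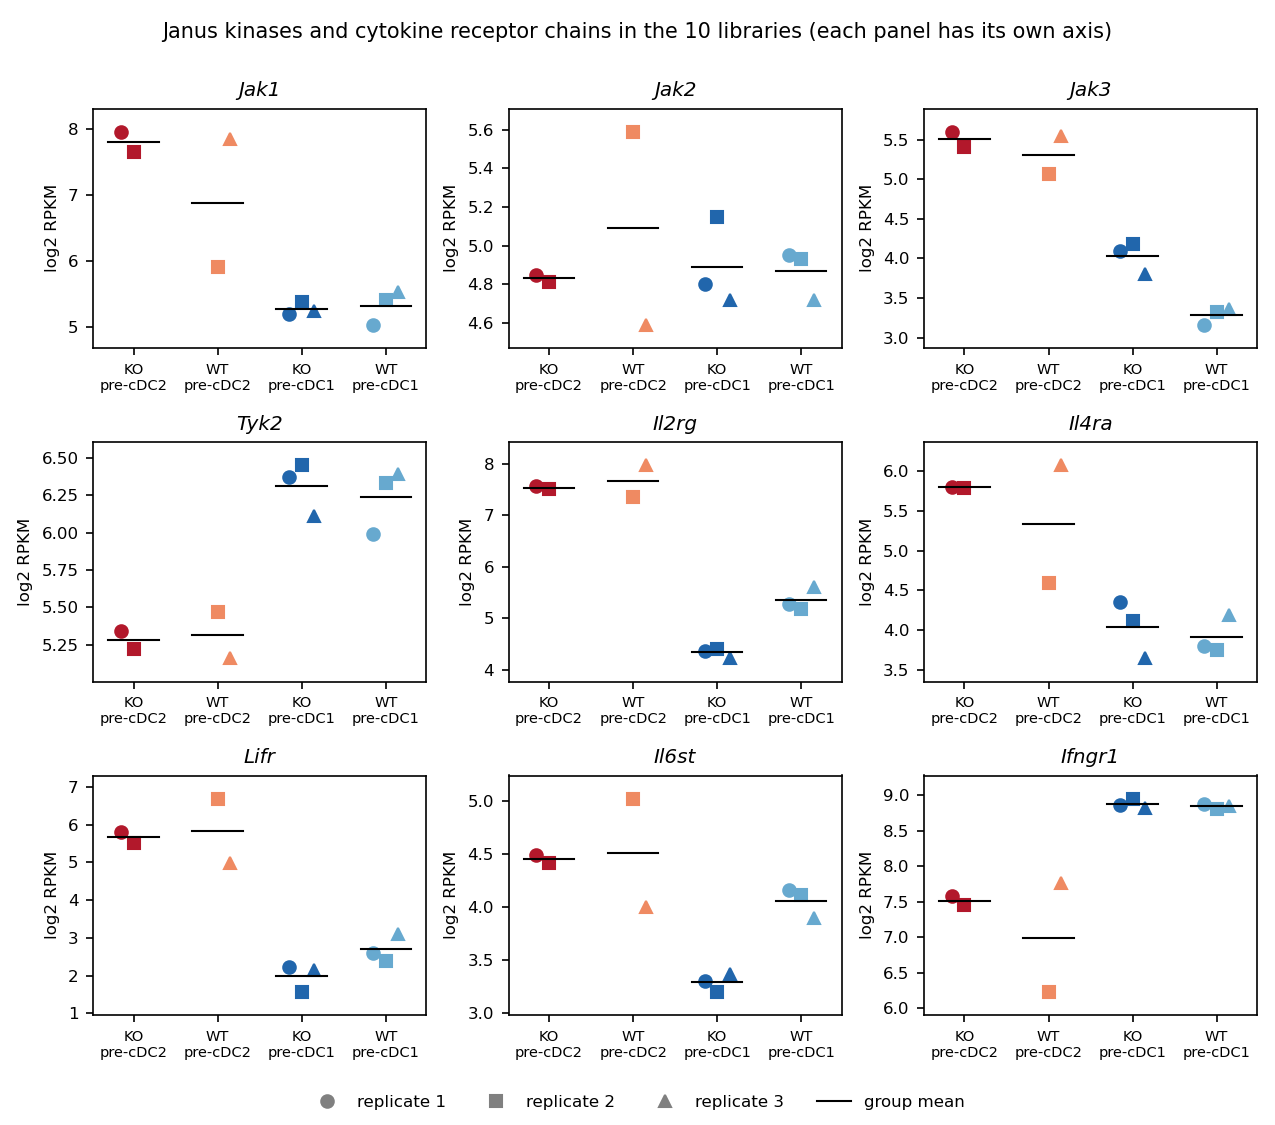
Level of the 4 JAKs and 5 receptor chains (log2 RPKM, vertical axes) in each library, with points for libraries, symbols for replicate numbers and lines for group means. Jak3, Il2rg and Lifr lie higher and Tyk2 and Ifngr1 lower in each pre-cDC2 library than in each pre-cDC1 library, while Jak1 of WT pre-cDC2 replicate 2 lies below the other pre-cDC2 libraries.

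Of 11 tested genes of the IL-2 and IL-12 receptor families, 6 were higher and 1 lower in KO pre-cDC2, and 4 higher and 1 lower in WT pre-cDC2. Il2rg was at 7.57 and 7.5 log2 RPKM in KO pre-cDC2 and 7.36 and 7.97 in WT pre-cDC2, against 4.37, 4.41 and 4.22 in KO pre-cDC1 and 5.28, 5.17 and 5.6 in WT pre-cDC1. It was higher by 3.20 ± 0.20 log2 in KO and by 2.32 ± 0.20 log2 in WT (limma adjusted p = 1.42e-05 and 0.000135). Il7r and Il2rb, which T and NK cells carry, were higher by 8.13 ± 1.1 and 8.85 ± 1.09 log2 in KO and by 4.76 ± 1.1 and 4.53 ± 1.09 log2 in WT. In WT they stood at 4.32 and 4.41 log2 RPKM in pre-cDC2 replicate 2 and at 7.84 and 9.27 in replicate 3. Il2rb is also in the NK cell marker list.

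Of 5 tested gp130 family chains, 3 were higher in KO pre-cDC2 and 2 in WT pre-cDC2, with none lower. Lifr, the receptor of leukaemia inhibitory factor, was at 5.82 and 5.52 log2 RPKM in KO pre-cDC2 and 6.69 and 4.99 in WT pre-cDC2, against 2.23, 1.57 and 2.15 in KO pre-cDC1 and 2.60, 2.38 and 3.11 in WT pre-cDC1. Its differences of 3.69 ± 0.45 log2 in KO and 3.14 ± 0.45 log2 in WT passed (limma adjusted p = 0.000597 and 0.00252), and its highest value was in WT pre-cDC2 replicate 2. Of 7 tested interferon and IL-10 receptor chains, 3 were called lower in KO pre-cDC2 and 2 in WT pre-cDC2, with none called higher. Their median difference was 0.42 log2 in KO and -0.03 log2 in WT. In KO 4 lay higher and 3 lower in every pre-cDC2 library, where 28.6% and 23.1% of all tested genes did. In WT 2 lay higher and 3 lower, where 20.2% and 18.5% did. None of those that lay higher passed the test. Ifngr1, a chain of the interferon gamma receptor, was lower by 1.36 ± 0.35 log2 in KO and 1.85 ± 0.35 log2 in WT (limma adjusted p = 0.0235 and 0.01). Of 5 tested chains of the GM-CSF and growth factor receptors, 1 was higher (Csf2rb2) and 1 lower (Csf2ra, the GM-CSF binding chain) in each genotype. Csf2ra was lower by 2.27 ± 0.36 log2 in KO and by 1.81 ± 0.36 log2 in WT.

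Among 11 listed regulators (PIAS proteins, phosphatases and Sh2b3), 3 were higher and 1 lower in KO pre-cDC2, and 2 higher in WT pre-cDC2. Their median difference was 0.31 log2 in KO and 0.4 log2 in WT, beside 0.09 and 0.06 log2 over all tested genes. Ptpn1, a phosphatase that acts on JAKs, was higher in both, by 1.1 ± 0.22 log2 in KO and by 1.43 ± 0.22 log2 in WT (limma adjusted p = 0.00667 and 0.00335). Socs2, a further SOCS gene, passed in KO, with 89 to 115 reads in KO pre-cDC2 and none in KO pre-cDC1, which is at least 33.1-fold higher with each KO pre-cDC1 library set to 3 reads (limma adjusted p = 0.0176). Only 7 of 22 genes of STAT-activating ligands were tested, of which 3 were higher and 2 lower in KO pre-cDC2, and 2 lower in WT pre-cDC2. Il15 was lower by 4.39 ± 0.40 log2 in KO and 3.06 ± 0.40 log2 in WT (limma adjusted p = 0.000121 and 0.00155). Of 20 textbook STAT targets, 12 were higher and 4 lower in KO pre-cDC2, and 6 higher and 2 lower in WT pre-cDC2. The median difference of these targets was 1.26 log2 in KO and 0.71 log2 in WT. Pim2, a survival kinase, was higher by 4.22 ± 0.53 log2 in KO and 3.14 ± 0.53 log2 in WT, and Ccnd3, a G1 cyclin, by 0.84 ± 0.12 and 0.67 ± 0.12 log2. Among those called lower in both genotypes was Bcl6, a transcriptional repressor, at -1.66 ± 0.35 log2 in KO and -1.61 ± 0.35 log2 in WT. The target list also holds genes of T and B cells (Gata3, Tbx21, Fcer2a), and the part of other cells in its counts was not tested.

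The genes most like each widely varying member were found by the root mean square difference of centred log2 RPKM over the 10 libraries. This is a description in which all points share cell type and library. Candidates were the tested genes with a mean log2 RPKM of at least 1 (9480 or 9481 genes). The mean of Cish itself was -2.14 log2 RPKM, so genes as low as Cish were not searched. For Stat4 they were Dok2, Ets1 and Tbx21, at 0.91, 0.97 and 0.99 log2. For Cish they were Cd96, Gzmb and Igkc, at 1.26, 1.32 and 1.44 log2. For Socs1 they were Fam78a, Tespa1 and Atp10a, at 0.28, 0.39 and 0.42 log2. For Socs3 they were Hvcn1, Gbp3 and Acap1, at 0.33, 0.34 and 0.34 log2. Stat5a was closest to Ybx3, Rab3d and Slc15a4, at 0.13, 0.18 and 0.22 log2. The distance is not scaled to a gene's own range, which was 2.4 log2 for Stat5a and 10.32 log2 for Cish. Distances of different members can therefore not be compared.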

How the data were processed

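The deposited values are log2 RPKM, which the authors made with edgeR, 1 column per library. The submitters' processing notes name STAR 2.3, featureCounts 1.5.0 and R 3.3.3, and the mouse build GRCm38. Per the labels' protocols, 2 ng of total RNA was amplified by SMARTSeq v2 and sequenced as paired ends. Which annotation, strand setting and rule for shared reads were used is not given in the sources used here.

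Whole reads were solved from the values with exon lengths of GENCODE mouse release 21, and all 490350 values of 49035 genes gave whole reads within 0.001. For another 3515 genes, Socs1 among them, a whole-number length was solved too. Recovered reads served for totals, floors and 1 alternative, and floors cover counting error only.

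Group means (4 groups) were fitted with limma 3.58.1 (R 4.3.3) to the log2 RPKM of 14787 genes (above 0 in at least 2 libraries), with eBayes and a trend and no added pseudocount. Tests were two-sided, adjusted by Benjamini and Hochberg within each of 6 comparisons, with 0.05 as the threshold. The procedure was tested on simulated data. The members, lists and tests were chosen with earlier results of these data known. Not every gene of the pathway lists is reported here. Pathway genes were named from the up to 4 with the smallest p per list and comparison. There were 12 alternative settings beside leaving out each of 10 libraries.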

Additional observations from a re-analysis of the deposited data

How the results depend on the processing

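Without a trend, with library weights or with only the compared groups in the fit, 1 of the 9 genes was called between the WT cell types, against 4. When libraries were left out, the count was 1 to 4 in WT, 2 to 6 in KO and 0 to 1 for KO minus WT in pre-cDC2. The WT count was 1 without WT pre-cDC1 replicate 1 or 3 and 2 without replicate 2. The KO count was 2 without either KO pre-cDC2 library and 4 without KO pre-cDC1 replicate 2. Each fit without a pre-cDC2 library rests on 1 library for its group, assumed to vary like the others.

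Correlations of same-numbered deviations were all between -0.03 and 0.032, and not every library correlated best with its own number. Deviations were taken from the means of groups of 2 or 3 libraries, so those of a group of 2 mirror each other. Whether equal numbers mark the same mouse is not stated in the labels, and this check cannot settle it. With the replicate number as a block, the counts were 6 in KO and 3 in WT. With a replicate block within genotype they were 3 in KO and 0 in WT, where Socs3 had the smallest adjusted p in WT (0.0572). Fits with only the compared groups were not made for the interaction or the average over cell types, and the block within genotype only between cell types.

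Of 1128 refits of single genes, 1030 kept direction and side of the threshold, 46 lost and 5 gained a call, and 47 changed sign, none of them of a called difference. Centring on library medians shifted every cell type difference by -0.20 log2 in KO and -0.12 in WT. It shifted every KO minus WT difference by -0.07 log2 in pre-cDC2 and -0.04 over both cell types, and every interaction by -0.07. It gave -0.05 for Stat3 in KO minus WT pre-cDC2, -0.05 for Stat6 between WT cell types, -0.02 for Stat3 between KO cell types, -0.06 for the interactions of Stat5a and Stat5b, and -0.03 for Stat6 in KO minus WT over both cell types. The replicate block gave -0.06 for Stat3 in KO minus WT pre-cDC2 and -0.05 for the interaction of Stat5b, and the block within genotype -0.03 for Stat6 between WT cell types. Adding 1 RPKM gave -0.01 for the interaction of Stat5a, and 0.07 for Cish and 0.01 for Stat4 in KO minus WT over both cell types. The sign changes under centring follow from its shifts, and the cause of the others was not tested.

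With libraries left out, KO minus WT in pre-cDC1 was -0.21 to 0.21 for Socs3. In pre-cDC2 it was -0.55 to 2.57 for Socs1, -0.16 to 0.57 for Socs3, -0.70 to 2.62 for Cish, -0.66 to 0.43 for Stat2, -0.07 to 0.12 for Stat3, -0.48 to 1.77 for Stat4, -0.81 to 0.19 for Stat5a and -0.34 to 0.21 for Stat5b. Between WT cell types it was -0.28 to 2.84 for Socs1, -0.65 to 0.43 for Stat2 and -0.03 to 0.13 for Stat6. The interaction was -0.04 to 3.08 for Socs1, -0.14 to 0.59 for Socs3, -0.86 to 0.23 for Stat2, -0.49 to 0.51 for Stat5a and -0.26 to 0.29 for Stat5b. Over both cell types KO minus WT was -0.53 to 1.03 for Socs1, -0.09 to 0.27 for Socs3, -0.23 to 0.31 for Stat2, -0.21 to 0.06 for Stat5b and -0.07 to 0.09 for Stat6.

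Over all genes, the count called for KO minus WT was 0 to 114 for pre-cDC1 (main count 4) and 0 to 1048 for pre-cDC2 (main count 10). It was 217 to 2722 between WT cell types (1697) and 1094 to 4014 between KO cell types (3074). The 114 and 1048 were without WT pre-cDC2 replicate 3.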
